A study of Capsicum annuum with 5 samples.

Results

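The annotation of small RNAs from pepper (Capsicum annuum, inbred line Zunla 1) lists a group of candidate miRNAs under names beginning with miRC, set apart by those names from the numbered families such as miR156. Precursor lines with such an identifier were taken once each, and mature sequences were joined to them through the parent named on their own line. This gave 31 of 165 hairpins, 29 of 64 names and 69 of 314 mature sequences. Small RNA was sequenced from 5 tissues with 1 library per tissue. Developing root, developing stem and mature leaf came from full-bloom plants kept in soil in a greenhouse at 22 °C with 16 h of light. Flowers were fully open when collected, and fruit was taken after selfing. The labels disagree on the fruit, naming a mature green stage in one place and fruit turning red at 30 days after pollination in another. The extraction text mentions root samples for every library, so each tissue was taken from the label of its own library. No genotype, treatment or further age separated the libraries, and no source says whether plants were pooled.

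In plants, a miRNA is cut from the stem of a folded transcript by a DICER-LIKE enzyme, which leaves a duplex with short 3′ overhangs at both ends. One strand of that duplex is usually kept by an ARGONAUTE protein, and in Arabidopsis the choice of ARGONAUTE follows in part the first base, with U favoured by ARGONAUTE1 and A by ARGONAUTE2. Families shared by distant plants often direct cleavage of transcription factor mRNAs, whereas miRNAs of a single lineage are as a rule less abundant, held by 1 or a few loci, and often of unknown target. The targets of the candidates were not analysed here.

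The most abundant mature sequence of each of the 12 candidate names with the most tags is given first. Over the 5 libraries these strands held most tags of each of these names. In leaf, however, miRC7-3p.1 was listed at 0, and the tags of miRC7 came from its other strands. The seed, bases 2 to 8, is in capitals. T stands for U as in the deposited sequences.
miRC16-5p.1: aAACGTTGaacttgtcggtat
miRC8-5p: tGATACGAgcggcttctctat
miRC13-5p.1: tGTAGTTGtagccattctatt
miRC29-3p: tGAAACAAaatggagtctcacac
miRC11-5p: tCAGAATAtgatgatgtgagctt
miRC7-3p.1: tTATGAGAtaagttcaacacg
miRC2a-5p and miRC2b-5p: tTTGCATAcaaacctgaatcg
miRC18-5p: aGGAAGGAactccacgtcattgc
miRC3-5p: tTTCCTGGtagctaagttgtg
miRC5-5p: tCTGAACTaaatttgagcgta
miRC27-5p: tTGTAATAagattttggaaag
miRC4-5p: tGCTTGTAgtaactatggtaa
No seed was shared among these 12 strands. Among all 69 candidate mature sequences, the only seed shared with a differently named miRNA was CTCACAT, found in the minor strand of miRC11 and in a member of miR156. That strand is the single candidate of 24 nt.
miRC11-3p: tCTCACATacatcatattctgctt
The nearest numbered mature sequence to any candidate differed by 5 bases, so no candidate was a near copy of a numbered family in this annotation.

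Candidates made up a small part of the listed miRNA tags in every tissue, and miRC16 supplied most of it. Candidate tags numbered 12425 in stem, 11016 in root, 12281 in leaf, 11950 in fruit and 9551 in flower. The tags listed for all miRNAs numbered 1062218, 552707, 1302815, 1143163 and 2395834 in the same order. The candidate count was thus nearly level across tissues while the listed total was not. Candidates held 1.99% of listed tags in root (95% Clopper-Pearson interval 1.96 to 2.03), 1.17% in stem (1.15 to 1.19), 0.943% in leaf (0.926 to 0.959), 0.399% in flower (0.391 to 0.407) and 1.05% in fruit (1.03 to 1.06). With 1 library per tissue there is no replicate check, and all intervals here cover counting error only. Listed totals are sums over annotated miRNAs and not library depth, which is unknown, and 1417025 of the flower tags against 311007 of the root tags belonged to miR166. Without miR166 in the totals the shares were 5.30% in stem, 4.56% in root, 2.37% in leaf, 4.73% in fruit and 0.976% in flower, so that stem and not root was highest. Flower was lowest on both scales, but not under median-of-ratios size factors, where candidate tags divided by the size factor came to 16011 in fruit, 15751 in root, 11113 in flower, 10343 in stem and 6618 in leaf.

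Leaving out miRC16, which held 89.4% of the 57223 candidate tags, lowered the shares of listed tags to 0.128% in stem, 0.205% in root, 0.0973% in leaf, 0.0808% in fruit and 0.0572% in flower. Root remained highest and flower lowest among these shares. Under size factors root (1620) was highest, closely followed by flower (1595), and leaf was lowest. With miR166 also left out of the totals, stem, with 1364 tags, stood above root, with 1133. The candidates as a list were mostly rare. The median hairpin had 43 tags over the 5 libraries, beside 379.5 for the 134 numbered hairpins, with 110 for the 23 less conserved and 743 for the 111 broadly conserved among them. Tags of hairpins that carry the same sequence were counted at each of them in these sums.

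miRC16 was the candidate found at a high level in every tissue. Its hairpin of 211 nt lies on the plus strand of chromosome 3 from 60757996 to 60758206, in the coordinates of the deposited annotation, for which the sources used here name no build. It had 11061 tags in stem, 9883 in root, 11013 in leaf, 11026 in fruit and 8180 in flower, which placed it ninth of the 64 names (rank 9). That rank uses sums over hairpins, in which a sequence shared by several hairpins of a name is counted at each of them. Among the 31 names listed in all 5 libraries it had the smallest ratio of most to fewest tags, 1.35, beside a median of 6.33 over those names and 4.33 for the listed totals. Per 1000000 listed tags its level was 10413 in stem, 17881 in root, 8453 in leaf, 9645 in fruit and 3414 in flower. On that scale root was 1.72-fold above stem (interval 1.67 to 1.76) and 5.24-fold above flower (5.09 to 5.39). Both ratios depended on the scaling. Over 4 scalings the root to stem ratio ranged from 0.867 to 1.72 and the root to flower ratio from 1.48 to 5.24. Fruit was highest and leaf lowest under median-of-ratios size factors, and stem was highest without miR166.

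**Figure D1:**
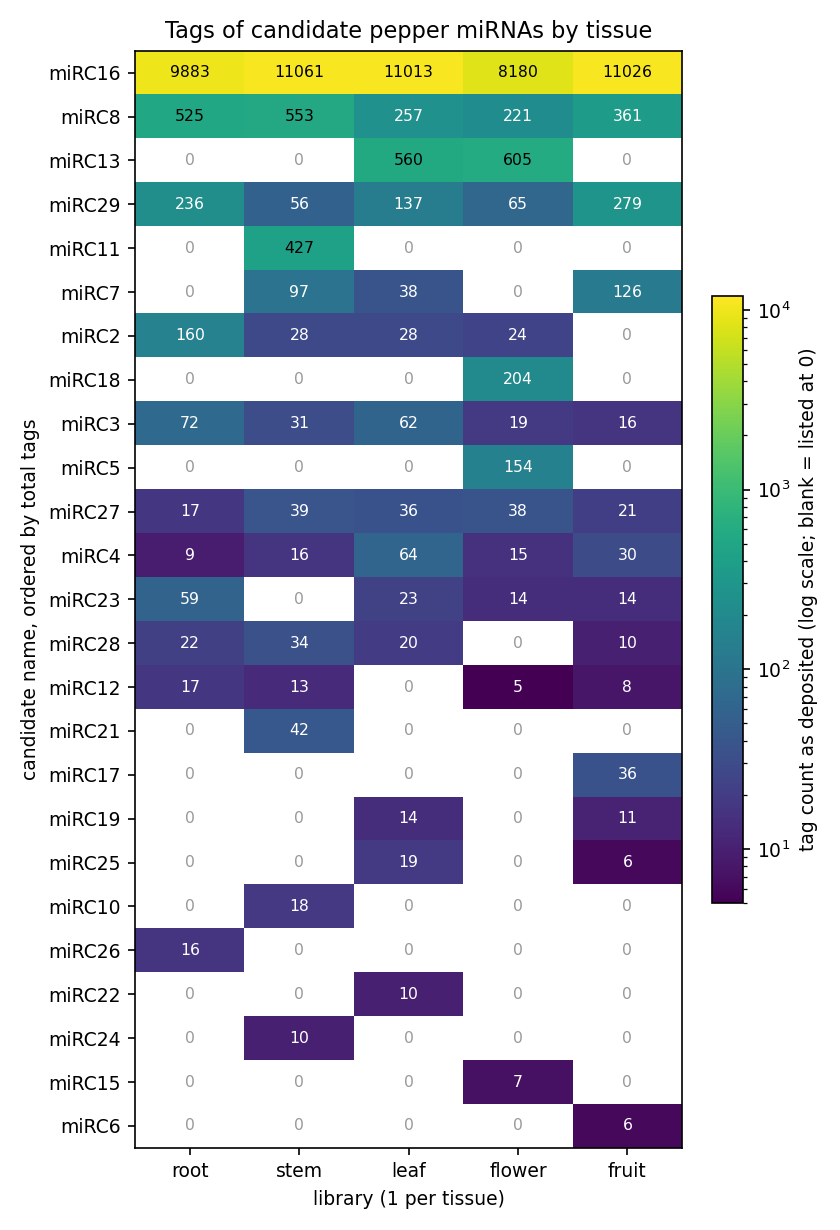
Tag counts as deposited for the 25 candidate names with tags (rows, ordered by total) in 1 library per tissue (columns), with colour on a log scale and blank cells for counts listed at 0. miRC16 has between 8180 and 11061 tags in every library, while many of the lower rows hold tags in 1 library only.

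miRC8 and miRC29 were the next names present in all tissues. miRC8 had 553 tags in stem, 525 in root, 257 in leaf, 361 in fruit and 221 in flower. Its level per 1000000 listed tags was 520.6 in stem, 949.9 in root, 197 in leaf, 316 in fruit and 92.2 in flower. Root was 1.82-fold above stem (1.62 to 2.06) and 10.3-fold above flower (8.78 to 12.1) on that scale. Under size factors root was 2.92-fold above flower (2.49 to 3.43) and leaf was lowest. Stem was highest without miR166 in the totals, but the root to stem ratio there, 0.921 (0.816 to 1.04), lay within counting error of 1. miRC29 had 56 tags in stem, 236 in root, 137 in leaf, 279 in fruit and 65 in flower. Root and fruit were its high tissues. Root exceeded fruit 1.75-fold per 1000000 listed tags (1.46 to 2.09). The root to fruit ratio was 0.903 under size factors (0.756 to 1.08) and 0.883 without miR166 (0.740 to 1.05). Fruit was thus higher on both scales, but not by more than counting error.

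miRC3, miRC27 and miRC4 completed the 6 names listed in all 5 libraries. miRC3 had 31 tags in stem, 72 in root, 62 in leaf, 16 in fruit and 19 in flower, and its root level per 1000000 listed tags was 2.74-fold that of leaf (1.92 to 3.91). Root was its highest tissue under all 4 scalings. miRC27 had 39 tags in stem, 17 in root, 36 in leaf, 21 in fruit and 38 in flower, and its stem to root ratio on the same scale was 1.19 (0.660 to 2.25). That ratio was 2.36 (1.31 to 4.46) without miR166 in the totals. Flower was highest under size factors, with a stem to flower ratio of 0.734 (0.457 to 1.18), an interval that includes 1. miRC4 had 16 tags in stem, 9 in root, 64 in leaf, 30 in fruit and 15 in flower. Leaf was 1.87-fold above fruit for miRC4 per 1000000 listed tags (1.20 to 2.99), 1.04-fold without miR166 (0.663 to 1.66) and 0.858-fold under size factors (0.548 to 1.37).

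**Figure D2:**
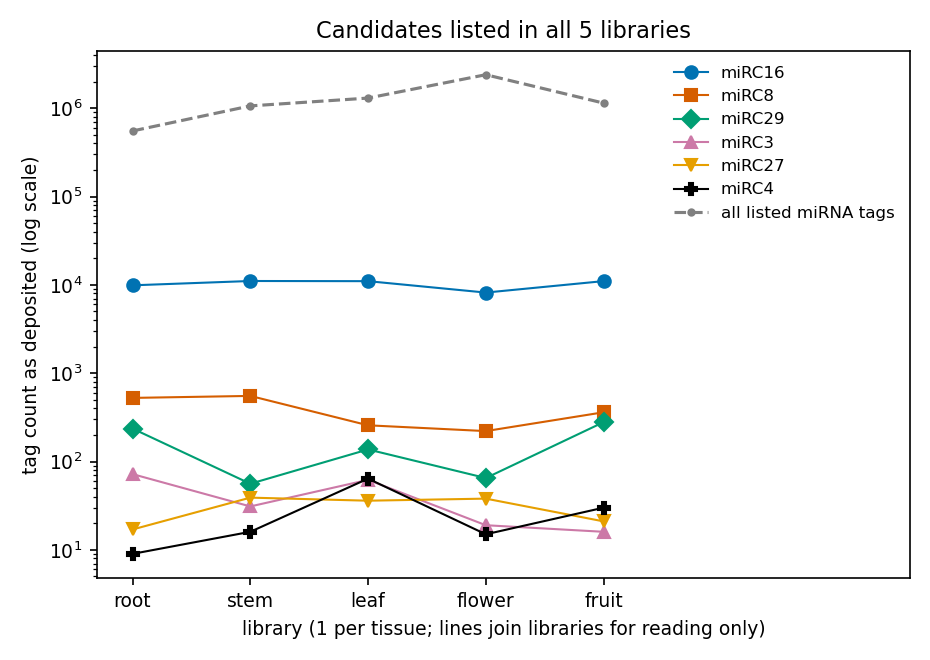
Tag counts as deposited (log axis) of the 6 candidate names listed in all 5 libraries, with the total of all listed miRNA tags as a dashed line; each point is 1 library and lines only join points. miRC16 stays between 8180 and 11061 tags while the listed total runs from 552707 in root to 2395834 in flower.

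Other abundant candidates were listed in some tissues and at 0 in others. miRC13 had 560 tags in leaf and 605 in flower and was listed at 0 in root, stem and fruit. Per 1000000 listed tags leaf was 1.70-fold above flower (1.51 to 1.91), and under size factors the ratio of leaf to flower was 0.429 (0.381 to 0.482), with flower higher. miRC7 had 97 tags in stem, 38 in leaf and 126 in fruit, and was listed at 0 in root and flower. Its fruit to stem ratio was 1.21 per 1000000 listed tags (0.919 to 1.59) and 2.09 under size factors (1.59 to 2.75), so whether fruit exceeded stem by more than counting error depended on the scaling. miRC28 had 22 tags in root, 34 in stem, 20 in leaf and 10 in fruit, and miRC12 had 17 in root, 13 in stem, 5 in flower and 8 in fruit. miRC28 was thus listed at 0 in flower only, and miRC12 in leaf only.

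A size criterion was applied to all names with at least 10 tags, asking that the highest tissue exceed the next at least 4-fold per 1000000 listed tags, with a listed 0 taken as 4 tags. By this criterion 8 of 23 candidates were called (34.8%), beside 16 of all 57 names (28.1%) and 8 of 34 numbered names (23.5%). The candidate share lies near that of all names. Over all names, root led 6 (10.5%), stem 4 (7.02%), leaf 2 (3.51%), flower 3 (5.26%) and fruit 1 (1.75%). Among candidates, root led 3, stem 2, flower 2, fruit 1 and leaf 0. With median-of-ratios size factors 8 candidates were called beside 29.8% of all names. The counts were 8 beside 24.6% without miR166 and 7 beside 24.6% with each distinct sequence counted once. The 6 names called under all 4 scalings were miRC11, miRC2, miRC18, miRC5, miRC23 and miRC21.

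In root, the called names were miRC2, miRC23 and miRC26. miRC2, summed over 2 hairpins with identical counts, had 28 tags in stem, 160 in root, 28 in leaf, 0 in fruit and 24 in flower. Its root level per 1000000 listed tags was 10.98-fold that of stem (6.18 to 20.99), and 5.54-fold under the least favourable scaling. Root stood apart from the other 4 libraries for this name. miRC23 had 59 tags in root, 23 in leaf, 14 in flower and 14 in fruit and was listed at 0 in stem. Root exceeded leaf 6.05-fold on the normalised scale (3.68 to 10.3). miRC26 was listed in root alone, with 16 tags, and was not called without miR166 in the totals.

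In stem, miRC11 had 427 tags and miRC21 had 42, and both were listed at 0 in the other 4 libraries. In flower, miRC18 had 204 tags and miRC5 had 154, again with every other library at 0. miRC17 had 36 tags in fruit alone, summed over 2 hairpins with 18 each, and was not called when that sequence was counted once. No fold can be given for names at 0 elsewhere. No candidate hairpin had a total of 1 to 4 tags in any library, and 1 such total occurred among all hairpins, whereas 84 candidate totals were 0. A listed 0 may therefore stand for a count under a reporting minimum, and this was not tested. The strands behind the tissue calls that are not among the 12 above are shown here, seeds in capitals.
miRC23-5p: tGACGTTAagatagaccgtgcg
miRC21-3p: aGAATCGGtttcttagttgta
miRC17a-5p and miRC17b-5p: tCTGGACAacatgcgaggata
miRC26-3p: tGATGGAGaaacaacagtagc

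Candidates were listed in fewer libraries than numbered families. Of the 29 candidate names, 4 were listed in no library, 11 in 1, 3 in 2, 1 in 3, 4 in 4 and 6 in all 5. Of the 35 numbered names, 25 were listed in all 5 and 1 in a single library. The number of tags moves with this count. Among names with at least 10 and under 1000 tags, 9 of 20 candidates (median 98 tags) and 0 of 11 numbered names (median 195 tags) were listed in 1 library. By hairpin, 12 of 31 candidates (38.7%) and 27 of 134 numbered hairpins (20.1%) were listed in 1 library, and 6 (19.4%) and 64 (47.8%) in all 5. Among the numbered, 2 of 23 less conserved (8.70%) and 25 of 111 broadly conserved hairpins (22.5%) were listed in 1 library. In all 5 were 7 less conserved (30.4%, interval 13.2 to 52.9) and 57 broadly conserved hairpins (51.4%). For all 5 libraries, the less conserved interval overlaps that of candidates (7.45 to 37.5).

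In each tissue a minority of candidate hairpins had tags, with 15 in stem, 12 in root, 15 in leaf, 15 in fruit and 14 in flower. These were 38.7% to 48.4% of the 31, beside 58.2% to 80.6% of the 134 numbered hairpins. Flower listed the most numbered hairpins (108) but not the most candidates. miRC22 (10 tags in leaf), miRC10 (18 tags in stem), miRC24 (10 tags in stem), miRC15 (7 tags in flower) and miRC6 (6 tags in fruit) were also listed in 1 library. miRC19 had 14 tags in leaf and 11 in fruit, and miRC25 had 19 in leaf and 6 in fruit. miRC1, miRC9, miRC14 and miRC20 were listed at 0 in all 5 libraries.

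Every candidate hairpin met the pairing criteria used in plant miRNA annotation. These asked that the most abundant mature sequence lie on 1 side of the fold with at most 5 unpaired bases, at most 3 of them in asymmetric bulges. All 31 candidates met them, and so did all 134 numbered hairpins. Both were accepted by the same annotation, so the criteria do not separate them. The mature sequences on the 2 sides of a hairpin were paired as duplexes, and 32 of 34 candidate duplexes (94.1%) had 3′ overhangs of 2 nt at both ends, beside 96 of 105 numbered ones (91.4%). The exceptions were miRC9, with 1 nt at the base end, and miRC10, with 3 nt there. Strands without tags were included. Of the 69 candidate mature sequences, 15 had no tags in any library, among them both of miRC9. The overhangs of duplexes with such strands rest on the annotation and were not observed in these libraries.

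Candidate hairpins had a higher median length and a higher median folding energy index than numbered ones. Their median length was 131 nt (range 69 to 280, mean 136), beside 106 nt for less conserved (76 to 321, mean 133) and 100 nt for broadly conserved numbered hairpins (58 to 290). Hairpins over 200 nt made up 12.9% of candidates, 17.4% of less conserved and 3.60% of broadly conserved ones, so in mean and upper range candidates lay near the less conserved. The median folding energy index, which is minus the folding energy in kcal/mol per 100 nt divided by the percent G+C, was 1.42 for candidates, 1.11 for less conserved, 1.10 for broadly conserved numbered hairpins and 1.13 for all hairpins. Median G+C content was 36.7% for candidates and 41.1% for numbered hairpins, and the share of paired bases was 80.0% and 74.96%. The most abundant sequence had a median of 1 unpaired base in candidates and 2 in numbered hairpins. It was fully paired in 6 of the 27 candidate hairpins with tags (22.2%; miRC3, miRC5, miRC12, miRC19, miRC25 and miRC28) and in 4 of the 122 numbered ones with tags (3.28%).

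**Figure D3:**
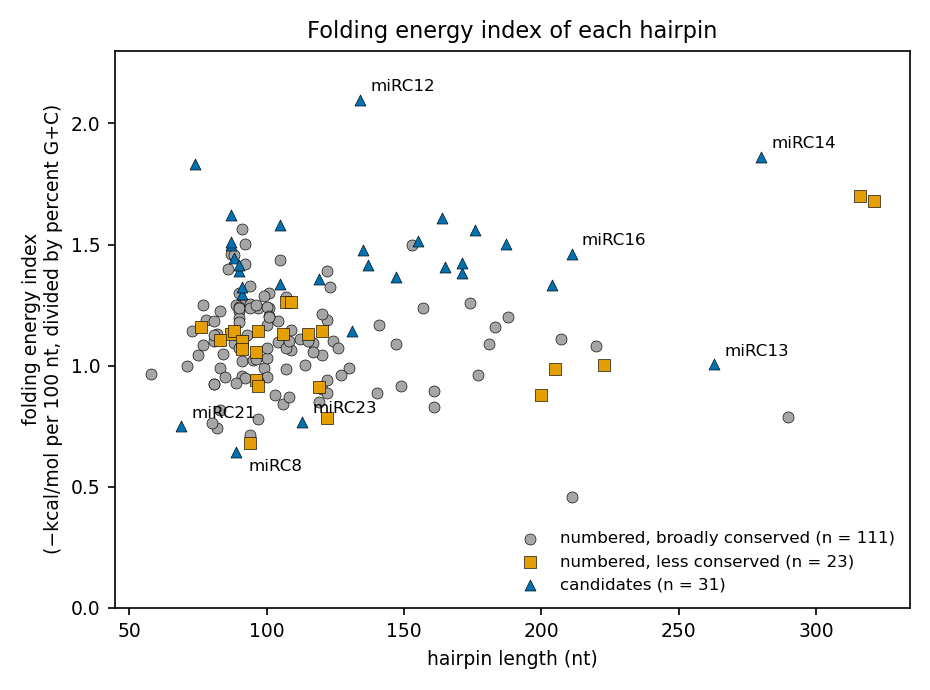
Folding energy index (vertical axis, minus kcal/mol per 100 nt divided by percent G+C) against hairpin length in nt for all 165 hairpins, 1 point each. Candidates (triangles, median 1.42) lie mostly above numbered hairpins (circles and squares, median 1.10), with miRC12 highest at 2.10 and miRC8 at 0.642 among the lowest.

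The candidates varied widely among themselves. miRC12 had the highest index of all 165 hairpins, 2.10, with 91.0% of its bases paired, followed among candidates by miRC14 at 1.86 and miRC15 at 1.83. miRC8, the second most abundant candidate, had the lowest candidate index, 0.642, and its main strand left 5 bases unpaired, the most the criteria allow. miRC21 (0.750) and miRC23 (0.768) were also low. The hairpins of miRC12 and miRC8 are shown as these extremes, on the strand that is transcribed, with the listed mature sequences in capitals.
miRC12, chr1:174757311-174757444, minus strand: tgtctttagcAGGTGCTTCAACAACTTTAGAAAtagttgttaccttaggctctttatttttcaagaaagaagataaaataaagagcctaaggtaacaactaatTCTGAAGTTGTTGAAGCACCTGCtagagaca
miRC8, chr8:138768365-138768453, plus strand: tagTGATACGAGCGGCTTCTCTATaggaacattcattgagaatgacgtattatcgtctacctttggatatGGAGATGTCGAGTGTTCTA
In miRC8 all 1917 tags came from the 5′ strand, and its 3′ strand of 19 nt was listed at 0.

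Mature candidates were mostly 21 nt long and most often began with U. Of the 69 sequences, 50 were 21 nt (72.5%, interval 60.4 to 82.5), 10 were 22 nt, 7 were 23 nt, 1 was 24 nt and 1 was 19 nt. Among the 245 numbered sequences, 190 were 21 nt (77.6%) and 3 were 23 nt. The most abundant sequence was 23 nt in 4 of 31 candidate hairpins, namely miRC11, miRC12, miRC18 and miRC29, and in 0 of 134 numbered hairpins. It was 22 nt in 4 candidate hairpins (12.9%) and in 11 numbered ones. Of these numbered hairpins, 10 were among the 23 less conserved (43.5%) and 1 among the 111 broadly conserved (0.901%). Lengths over 21 nt were thus more frequent in less conserved hairpins (43.5%) than in candidates (25.8%). U was the first base of 36 candidate sequences (52.2%), A of 17 (24.6%), C of 12 (17.4%) and G of 4 (5.80%), beside 47.3% U, 11.02% A, 14.7% C and 26.9% G in numbered sequences. Taking the most abundant sequence of each hairpin, 21 of 31 candidates (67.7%) and 89 of 134 numbered hairpins (66.4%) began with U, and 6 (19.4%) and 14 (10.4%) with A. Numbered hairpins often share a mature sequence, so they are not separate cases. Among candidates this also holds for the hairpins of miRC2 and for those of miRC17.

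By tags, A was the first base of 89.5% of candidate tags because miRC16-5p.1 begins with A. Without miRC16, U began 92.2% of the tags. Tags of 23 nt made up 23.6% of candidate tags without miRC16, and 36.1% in stem, the only library that lists miRC11.

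**Figure D4:**
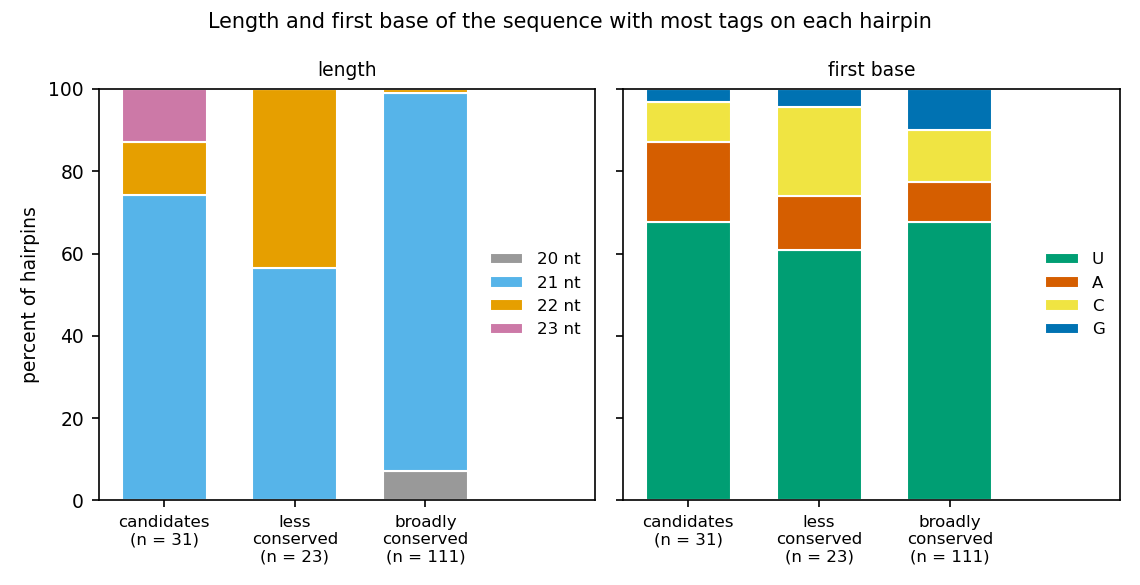
Percent of hairpins (stacked bars, 0 to 100) by length in nt and by first base of the most abundant mature sequence, for 31 candidates, 23 less conserved and 111 broadly conserved numbered hairpins. A length of 23 nt is seen in candidates only (4 of 31), and U leads in all 3 sets.

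In each candidate with tags, most tags over the 5 libraries came from 1 side of the stem, in shares from 83.3% (miRC6, with 6 tags) to 100%. Summed over names, 99.4% of tags lay on the more abundant side, and 95.4% without miRC16. The 5′ side was the more abundant in 20 of 27 candidate hairpins with tags (74.1%, interval 53.7 to 88.9) and in 53 of 122 numbered ones (43.4%, 34.5 to 52.7). Among these it was so in 10 of 19 less conserved (52.6%, 28.9 to 75.6) and 43 of 103 broadly conserved hairpins (41.7%). The less conserved interval overlaps that of candidates. Numbered hairpins that share a mature sequence are not separate cases, so the numbered intervals are too narrow. The candidate interval is too narrow for the same reason, since miRC2 and miRC17 each count with 2 hairpins of identical mature sequences. Both sides were listed for all 31 candidate hairpins, against 103 of 134 numbered ones. Both sides had tags in the same library for 21 candidates (67.7%) and 90 numbered hairpins (67.2%). With at least 5 tags on each side in 1 library, 7 candidates were left, namely miRC4, miRC7, miRC13, miRC16, miRC18, miRC27 and miRC29.

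Among candidates with over 100 tags, the share of the minor side was largest in miRC13, miRC7, miRC4 and miRC27. Their main side held 85.8%, 87.4%, 87.3% and 88.7% of tags. In miRC13 the 3′ side had 51 of 560 tags in leaf (9.11%, interval 6.86 to 11.8) and 114 of 605 in flower (18.8%, 15.8 to 22.2). The intervals did not overlap, so the ratio of sides differed between these libraries by more than counting error. In miRC7 the 3′ side had 94 of 97 tags in stem (96.9%), 123 of 126 in fruit (97.6%) and 11 of 38 in leaf (28.9%, 15.4 to 45.9). Leaf thus had the reverse strand balance of stem and fruit.

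The hairpin of miRC7 carries 2 duplexes, and the main one differed between tissues. It is printed here with its 4 mature sequences in capitals, in the order 5p.1, 5p.2, 3p.2 and 3p.1.
miRC7, chr5:169067983-169068153, plus strand: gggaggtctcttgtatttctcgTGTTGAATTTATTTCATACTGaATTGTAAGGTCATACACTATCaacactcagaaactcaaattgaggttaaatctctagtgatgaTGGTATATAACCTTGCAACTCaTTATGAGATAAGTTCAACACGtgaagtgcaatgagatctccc
On each side, 1 nt separates the neighbouring sequences, so their starts are 22 nt apart. miRC7-3p.1, of the duplex nearer the base of the stem, had 94 tags in stem and 123 in fruit and was listed at 0 in leaf. miRC7-5p.2, of the duplex nearer the loop, had 3 tags in stem, 27 in leaf and 3 in fruit, and its partner miRC7-3p.2 had 11 tags in leaf alone. All 38 leaf tags of this hairpin therefore belonged to the duplex nearer the loop.

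The hairpin of miRC16 carries 3 duplexes in a row, each with overhangs of 2 nt at both ends. Its 6 mature sequences are in capitals below, in the order 5p.1, 3p.2, 3p.3, 5p.3, 5p.2 and 3p.1.
miRC16, chr3:60757996-60758206, plus strand: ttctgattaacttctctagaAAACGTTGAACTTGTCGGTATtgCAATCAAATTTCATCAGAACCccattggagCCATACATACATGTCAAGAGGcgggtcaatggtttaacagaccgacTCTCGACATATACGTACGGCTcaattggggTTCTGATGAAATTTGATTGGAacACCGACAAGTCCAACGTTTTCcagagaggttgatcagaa
Starts on the 5′ side are 23 and 30 nt apart. The outermost sequence, miRC16-5p.1, had 50838 tags, with 11004 in stem, 9819 in root, 10934 in leaf, 10959 in fruit and 8122 in flower, and its partner miRC16-3p.1 had 34. The second duplex had 70 tags for miRC16-3p.2 and 21 for miRC16-5p.2, and the third had 196 for miRC16-3p.3 and 4 for miRC16-5p.3. The outer duplex thus held nearly all tags of the hairpin. The 4 sequences of the inner duplexes carry arm names opposite to their side of the fold, and no other candidate does. Sides were therefore assigned by position.

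**Figure D5:**
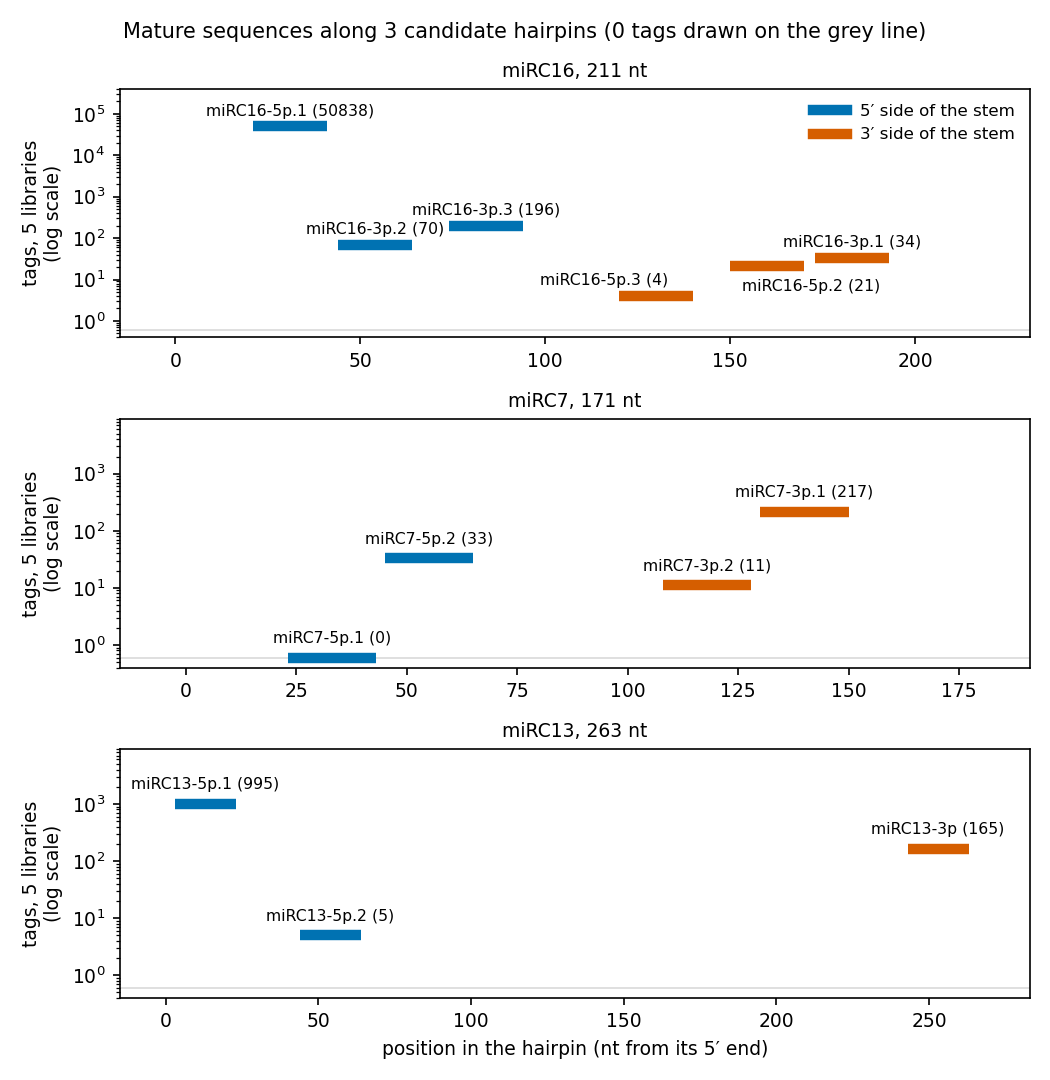
Position of each mature sequence (bars; horizontal axis in nt from the 5′ end) on the hairpins of miRC16, miRC7 and miRC13 against its tags summed over 5 libraries (log axis), coloured by the side of the stem. On miRC16 the outermost 5′ sequence has 50838 tags and the other 5 have between 4 and 196.

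miRC13, 263 nt long, has 3 mature sequences, 2 of which form its main duplex. miRC13-5p.1 had 508 tags in leaf and 487 in flower, and miRC13-3p had 51 and 114. miRC13-5p.2, which starts 41 nt downstream on the 5′ side, had 1 tag in leaf and 4 in flower.

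Most candidates were single hairpins, and 2 names had a pair each. The miRC2 hairpins lie 72590 bp apart on chromosome 5 and differ at 2 positions, with identical mature sequences, shown in capitals.
miRC2a, chr5:32080305-32080392, plus strand: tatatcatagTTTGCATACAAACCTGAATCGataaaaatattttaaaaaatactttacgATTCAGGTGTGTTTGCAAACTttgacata
miRC2b, chr5:32152983-32153069, plus strand: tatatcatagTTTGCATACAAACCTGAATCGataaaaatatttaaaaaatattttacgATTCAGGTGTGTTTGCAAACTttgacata
Both differences lie in the stretch between the mature sequences. Their counts were identical in every library, so tags of one cannot be told from tags of the other. The miRC17 hairpins lie 109664 bp apart on the sequence named Chr00, also with identical mature sequences. They differ at 5 positions, counting the extra final base listed for miRC17b (91 nt against 90 nt for miRC17a).

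A numbered hairpin, miR6149, lies 625 bp from miRC2a on the opposite strand, at 32081018 to 32081217, and was singled out after its values were seen. The 5′ strands of both differ by 5 bases and share a run of 10 nt, in capitals, at shifted positions.
miRC2-5p: tttgcatacaaACCTGAATCG
miR6149-5p: ttcgatacgcACCTGAATCGc
Their tissue values differed. miR6149-5p had 36 tags in leaf and 22 in flower and was listed at 0 in root, where miRC2 was highest. The only other neighbours within 10 kb were miRC22 and miRC23, 5688 bp apart on chromosome 10 with unlike sequences (56 differences) and with 10 tags in leaf for miRC22 against 59 in root for miRC23. By chromosome, candidates were most frequent on 5 (6 of 11 hairpins) and 1 (5 of 14), and chromosomes 4 and 6 held 0 of 4 and 0 of 13.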

How the data were processed

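Small RNA of 5 pepper tissues, 1 library each, was available as a deposited GFF annotation that came from the MIREAP miRNA finder in its plant setting, per the file headers. The authors gave a whole-number tag count per library in the attribute text of each mature sequence, together with a hairpin sequence and structure, and these deposited counts were used as they stand. The sources used here do not give the genome build, the aligner, the trimming, how tags that match several places were counted, or the total reads of each library.

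Candidate hairpins were those with identifiers beginning with can-miRC. The members and lists were chosen with earlier results of these data known. Duplicate precursor lines (176 lines, 165 hairpins) were counted once, and mature sequences were assigned by parent, since 4 carried the name of another candidate. The 1 stray character in a candidate hairpin sequence was removed. Hairpins were folded with ViennaRNA 2.7.2 at 37 °C, because 5 of the 31 deposited candidate structures had brackets that do not pair up. Arms were assigned by position in the fold. Where no mature sequence of a hairpin had tags, the one listed first stood for the most abundant. Levels are tags per 1000000 listed tags, with median-of-ratios size factors, totals without miR166 and each distinct sequence counted once as alternatives. Size factors used the 31 names listed in all libraries. Shares carry 95% Clopper-Pearson intervals, and ratios of counts carry intervals from the exact binomial split, computed with SciPy 1.17.1 and NumPy 2.4.6 under Python 3.11.15. Hairpin likeness used blastn 2.17.0 with an e-value limit of 1e-05. With 1 library per tissue no test was made. The scripts were checked on simulated data.

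Values in every library are given for the 12 candidate names with the most tags, for names led 4-fold by a tissue and for names with several hairpins. Some rarer candidates and miR6149 are named beside these, chosen after their values were seen. miR156 is also named for a shared seed, and miR166 for its part in the listed totals. The broadly conserved families were miR156, miR159, miR160, miR162, miR164, miR166, miR167, miR168, miR169, miR171, miR172, miR319, miR390, miR393, miR394, miR395, miR396, miR397, miR398, miR399, miR403 and miR408. Other numbers are called less conserved.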

Additional observations from a re-analysis of the deposited data

How the results depend on the processing

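Of 45 alternative values, 20 were taken as kept and 25 as moved. Kept meant within the reported interval for shares and within 1.5 times for counts. For the median energy index it meant within the standard deviation among candidate hairpins (0.302), which is a spread and not an error. The candidate share of listed tags in root, stem, leaf, flower and fruit was 4.72%, 3.89%, 2.26%, 1.41% and 3.83% with each distinct sequence counted once. It was 4.56%, 5.30%, 2.37%, 0.976% and 4.73% without miR166 in the totals, and 0.205%, 0.128%, 0.0973%, 0.0572% and 0.0808% without miRC16. The first pair of settings shrinks the denominator by construction and the last the numerator. Hairpins with tags on both sides in 1 library fell to 7 at 5 tags a side. U-first sequences made up 67.7% of the most abundant strands. The median energy index of candidates was 1.84 when folded at 22 °C, beside 1.44 for numbered hairpins. The share of tags on the more abundant side was 99.8% in stem, 99.8% in root, 99.1% in leaf, 99.8% in fruit and 98.5% in flower, 95.4% without miRC16 and 99.0% with arms as typed in the annotation. The count of candidates led 4-fold by a tissue ranged from 7 to 11 over its alternatives, the 11 with a listed 0 taken as 0. Of 23 names, 15 kept their highest tissue over the 4 scalings. Of these, 9 were listed in 1 library only, so no scaling could change their highest tissue. Among names listed in several libraries, miRC7, miRC2, miRC3, miRC23, miRC12 and miRC25 kept it. The highest tissue changed for miRC16, miRC8, miRC13, miRC29, miRC27, miRC4, miRC28 and miRC19. The settings without miRC16 for strand shares, arms as typed, deposited structures, hairpins with tags only and names within a range of tags were chosen after seeing the data.

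No paired analysis was possible because each tissue has 1 library. Leaving out a replicate could not be done for the same reason. Most candidates rest on few tags, library depth is unknown, and totals of 1 to 4 tags are nearly lacking in the annotation, so the meaning of a listed 0 is uncertain. A difference between tissues cannot be told apart from a difference between single libraries, and the fruit stage is uncertain.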
